A study of Mus musculus with 8 samples.

Results

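Proximal intron peaks were taken as DDX5 eCLIPseq peaks that overlapped no exon of any GENCODE M21 transcript on their strand and lay in an intron with at most 500 bases between the peak and an exon of the same transcript. They numbered 1670 of 26879 peaks in 3 deposited lists, which were kept apart throughout. The small intestine list held 295 of 1278 (23.1%, exact 95% interval 20.8 to 25.5), the colon list called mAb 1033 of 16455 (6.28%) and the colon list named rAb 342 of 9146 (3.74%). A peak downstream of its nearest exon lies at the start of an intron, beside a 5′ splice site, and a peak upstream of its nearest exon lies at the end of an intron, beside a 3′ splice site. All coordinates are on GRCm38, counted from 1.

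DDX5 is a DEAD-box RNA helicase, and eCLIPseq links it to RNA with UV light, immunoprecipitates it (IP) and sequences the attached RNA beside a size-matched input. Of 8 samples, small intestinal epithelial cells (IECs) gave 2 CLIP and 2 input samples, and colonic IECs gave 1 CLIP and 1 input sample under each of the names mAb and rAb. Small intestine samples came from adult female C57BL/6 mice, wild type and 8 weeks old. Colon samples carry a wild-type genotype label, whereas their growth protocol names mice aged 120 days with 1 floxed Apc allele and Cre under CDX2 control, a Cre that acts in the intestinal epithelium. The study's text describes wild-type mice for its colon eCLIPseq, as the genotype label does. Its methods give female mice younger than 120 days for eCLIPseq of IECs. It does not say which mouse belongs to which antibody name. The antibody catalogue number is the same for all CLIP samples, so what sets mAb apart from rAb is not known here.

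Introns are removed from pre-mRNA by the spliceosome, which pairs U1 snRNA with the 5′ splice site and U2 snRNA with the branch point near the 3′ splice site. DDX5 belongs to the helicases that unwind short RNA duplexes, and it has known roles in splicing, in transcription and in microRNA processing. The first intron of a mammalian gene often begins inside a CpG island, a stretch near the promoter that is rich in G and C, so its first bases are commonly more GC-rich than those of later introns. Peaks in introns come from unspliced pre-mRNA, excised introns or introns kept in the mRNA, and in bulk libraries fewer cells of a type and less RNA per cell cannot be told apart.

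The sequences below show what most mAb sites, the peaks past a cutoff described below, and most downstream small intestine members looked like: short, GC-rich stretches at the start of intron 1, with runs of G. Capitals mark every run of 3 or more G, and each sequence is the peak itself on the transcribed strand. The Errfi1 (a feedback inhibitor of EGF receptor signaling), Azin1 (antizyme inhibitor, a regulator of polyamines) and Hnrnpa3 (an hnRNP) peaks are from the mAb list, lay 4, 2 and 112 bases into the intron, and overlapped small intestine peaks. The Ctnnb1 (β-catenin) and Vegfa (vascular endothelial growth factor A) peaks are from the small intestine list and lay 65 and 370 bases into the intron, with log2 folds of 4.31 and 6.80.
Errfi1 mAb, chr4:150855276-150855389 (+): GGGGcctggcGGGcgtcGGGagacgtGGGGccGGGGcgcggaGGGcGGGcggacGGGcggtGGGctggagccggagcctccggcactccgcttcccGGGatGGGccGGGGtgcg
Azin1 mAb, chr15:38518824-38518906 (-): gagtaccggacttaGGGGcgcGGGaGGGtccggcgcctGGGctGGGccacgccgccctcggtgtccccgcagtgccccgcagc
Hnrnpa3 mAb, chr2:75659502-75659566 (+): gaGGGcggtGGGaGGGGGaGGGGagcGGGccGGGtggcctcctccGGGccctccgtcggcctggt
Ctnnb1 small intestine, chr9:120933704-120933783 (+): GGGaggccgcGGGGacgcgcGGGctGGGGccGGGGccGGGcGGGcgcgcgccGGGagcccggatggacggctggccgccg
Vegfa small intestine, chr17:46030869-46030920 (-): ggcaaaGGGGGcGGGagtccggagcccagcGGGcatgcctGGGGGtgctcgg

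The Errfi1 peak held 12 runs of G that together made up 40 of its 114 bases, and its GC content was 83.3%. The Ctnnb1 peak held 8 runs in 80 bases at a GC content of 90%, and the Hnrnpa3 peak 7 runs in 65 bases at 81.5%.

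Not every member looked like this, and the next sequences are shown as the contrast. The Synj2bp (an outer mitochondrial membrane protein) peak was the small intestine member farthest from an exon, at 500 bases, and lay wholly in a GAA-rich repeat with no run of G. The Nisch (an imidazoline-binding protein) peak is from the rAb list, and the Zfp791 (a zinc-finger protein) peak was past the cutoff in the small intestine as well as in rAb.
Synj2bp small intestine, chr12:81503921-81504043 (-): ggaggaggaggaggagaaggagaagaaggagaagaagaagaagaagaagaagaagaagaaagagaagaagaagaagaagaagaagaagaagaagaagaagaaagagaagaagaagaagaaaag
Nisch rAb, chr14:31181990-31182081 (-): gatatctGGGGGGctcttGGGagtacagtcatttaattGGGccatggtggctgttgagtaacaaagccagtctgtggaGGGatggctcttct
Zfp791 rAb, chr8:85111889-85111970 (-): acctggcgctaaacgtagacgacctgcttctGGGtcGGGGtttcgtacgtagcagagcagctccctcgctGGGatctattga

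Each peak carries a deposited log2 fold (IP reads over input reads, both scaled to depth) and a deposited −log10 p of the same reads. Peaks above 3 on both are called sites. The small intestine list holds only sites, after a merge of 2 replicates, whereas the colon lists hold every called peak, so a colon member need not be enriched. Each group had 1 list, so no test between lists was possible, and shares below carry exact (Clopper-Pearson) 95% intervals that cover counting error only. Adjacent intervals often shared reads: with intervals at most 10 bases apart joined, the members formed 241 stretches in the small intestine, 898 for mAb and 246 for rAb. They lay in 165, 743 and 238 genes, and 95.9%, 96.7% and 98.5% of members had a protein-coding host.

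The labelled tissues were set against markers of intestinal and other cell types. Of 10 small intestine enterocyte markers, 8 had a called peak in the small intestine and 0 in either colon list. Of 10 colonocyte markers, 10 had a called peak for mAb, 4 for rAb and 2 in the small intestine. These counts are unlike, since every small intestine peak is a site and most colon peaks are not. Counted by sites, colonocyte markers numbered 2 in the small intestine, 1 for mAb and 0 for rAb, and enterocyte markers 8, 0 and 0. Of 12 immune cell markers, 0 had a called peak in the small intestine and 2 in each colon list, and of 10 stromal markers, 0, 6 and 4 had one in the small intestine, mAb and rAb lists. No immune or stromal marker had a proximal intron peak in any list. Of all genes with a called peak, 35.3% in the small intestine, 14.3% for mAb and 6.60% for rAb had one. With so few of these markers called, their absence among members says little.

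To see on which side of the exon these peaks lay, members were split at the nearest exon. Of 295 small intestine members, 275 were downstream of an exon and 20 upstream, a downstream share of 93.2% (89.7 to 95.8). The mAb list had 728 downstream and 305 upstream (70.5% downstream, 67.6 to 73.2), and the rAb list 227 and 115 (66.4%, 61.1 to 71.4). As a measure of the space available, windows of 75 bases were tiled over the same 500-base intron edges in all genes with a called peak, and 50.7%, 50.2% and 50.2% of these windows were downstream in the small intestine, mAb and rAb lists.

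Most of the downstream members lay in intron 1. Intron 1 of at least 1 transcript held 252 of 275 downstream members in the small intestine (91.6%), 504 of 728 for mAb (69.2%) and 135 of 227 for rAb (59.5%). As a share of all members, the start of intron 1 thus held 85.4% in the small intestine (80.9 to 89.2), 48.8% for mAb (45.7 to 51.9) and 39.5% for rAb (34.3 to 44.9), against 12.7%, 12.1% and 12.2% of the tiled windows. Among upstream members, 18 of 20 (90%, 68.3 to 98.8) were in intron 1 in the small intestine, whereas 92 of 305 (30.2%, 25.1 to 35.7) of mAb and 32 of 115 (27.8%, 19.9 to 37.0) of rAb upstream members were.

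**Figure D1:**
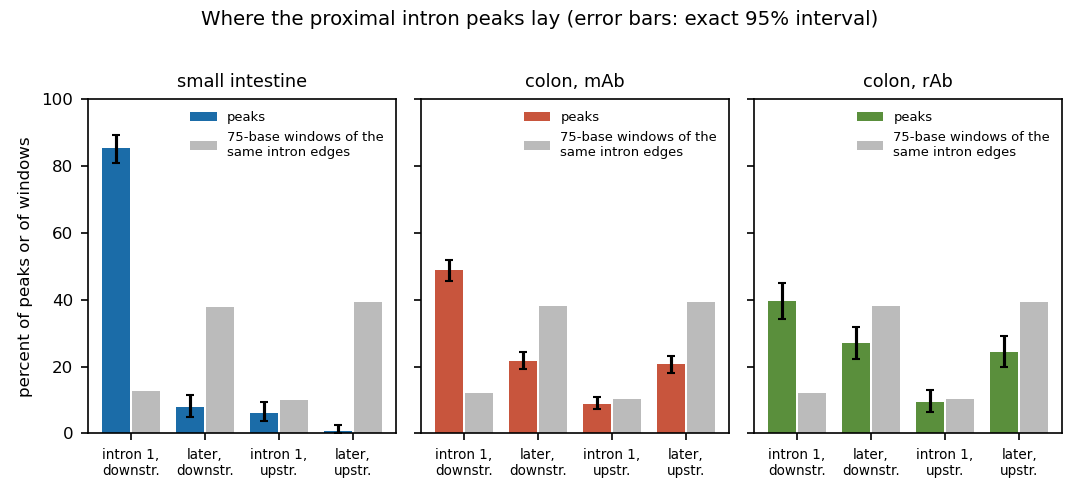
Bars give the percent of proximal intron peaks in each of 4 classes, with exact 95% intervals and 1 panel per list. The classes are intron 1 or a later intron, downstream or upstream of the nearest exon. Grey bars give the percent of 75-base windows tiled over such intron edges in all genes with a called peak. The start of intron 1 held 85.4% of small intestine, 48.8% of mAb and 39.5% of rAb peaks, but 12.1% to 12.7% of windows.

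Most small intestine members lay near an annotated transcript start of their gene, which need not be its first. The colon shares were lower. Within 1000 bases of an annotated transcript start were 271 of 295 small intestine members (91.9%, 88.1 to 94.7), 538 of 1033 for mAb (52.1%) and 162 of 342 for rAb (47.4%). The median distance to the nearest such start before the peak was 377 bases in the small intestine, 840 for mAb and 1460 for rAb. Exon and distal intron peaks of the small intestine list had medians of 1551 and 10342 bases.

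Within the 500 bases, members were most numerous near the exon, except for the few upstream members of the small intestine. The sequence available at each distance was not counted, so whether members exceed it near the exon was not tested. The median distance to the exon was 144 bases in the small intestine (125 to 169), 176 for mAb (164 to 190) and 187 for rAb (161 to 213), so the 2 colon lists did not differ beyond their intervals. In the small intestine, 106 of 275 downstream members (38.5%) lay within the first 100 bases of the intron. Of 305 upstream mAb members, 99 lay in the last 50 bases before the exon, the stretch that holds the 3′ splice site, and 25 in the 50 bases before that. The rAb list had 23 of 115 upstream members in that last stretch. Among the 20 upstream small intestine members, 3 lay there. An exon within 500 bases on both sides, as in a short intron, was found for 11 of these 20 and for 26 of 275 downstream members (9.45%), so the side of the former rested more often on which exon was nearer.

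**Figure D2:**
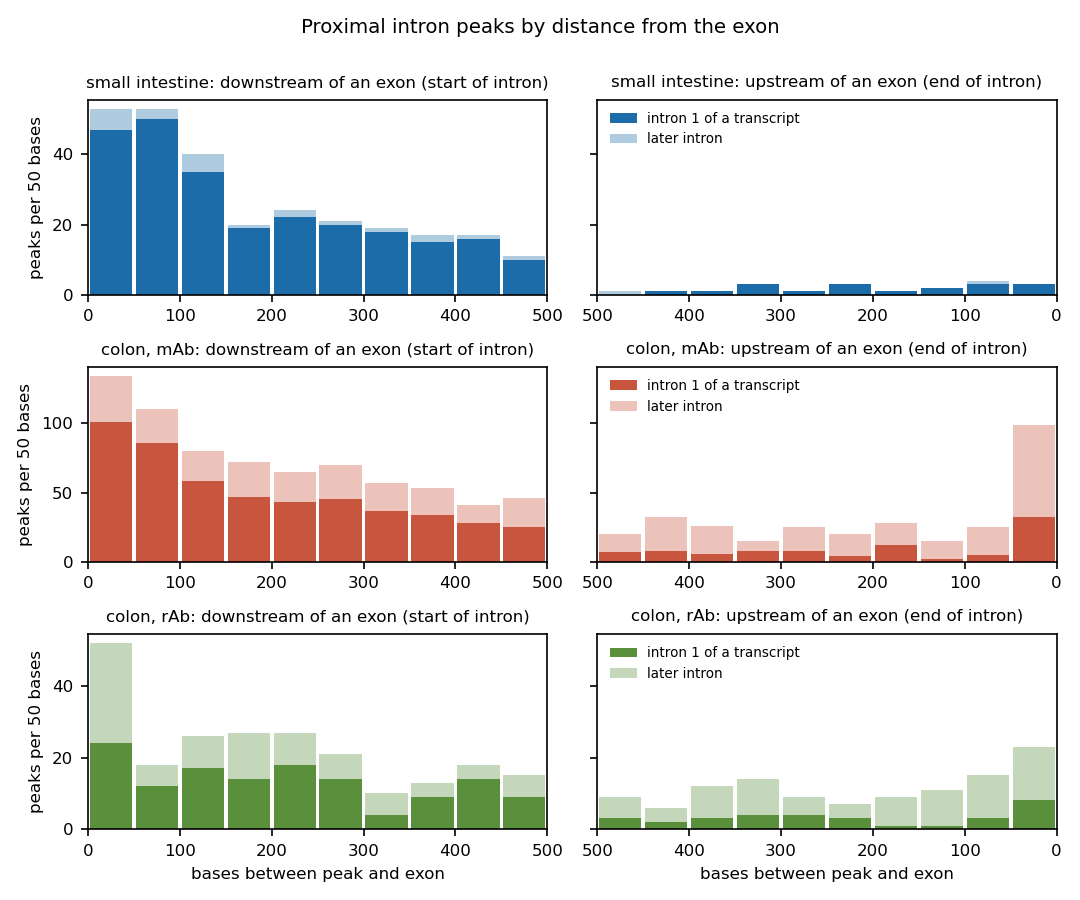
Each panel counts proximal intron peaks in 50-base bins by the number of bases between peak and exon, for 1 list (rows) and side of the exon (columns), with intron 1 in full colour and later introns pale. The small intestine counts go from 53 in each of the first 2 downstream bins to 11 in the last, and the mAb list shows 134 and 99 peaks in the bins that touch the exon downstream and upstream.

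Members in the outermost 100 bases of the window, just inside the limit, had a median log2 fold of 5.27 in the small intestine (n = 30), 2.15 for mAb (n = 137) and 3.24 for rAb (n = 47). Distal intron peaks lay over 500 bases from the exons on either side of each annotated intron that held them. In the next 100 bases, just outside the limit, they had medians of 4.71 (n = 18), 2.15 (n = 103) and 3.24 (n = 45).

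Enrichment of the members was high in the small intestine list, where the selection of sites sets a floor. The median log2 fold was 4.66 (4.58 to 4.76), with values from 3.04 to 7.40, between those of exon peaks (3.94) and distal intron peaks (5.21) of that list. Downstream and upstream members had medians of 4.68 and 4.49. The colon medians were 2.15 for mAb and 3.24 for rAb, equal to those of distal intron peaks, against 1.05 and 1.65 for exon peaks.

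The colon medians reflect few reads. Whole reads could be traced from the deposited pair of values for 1007 mAb and 327 rAb members, and 454 of these (45.1%) and 217 (66.4%) had 3 IP reads over an input of 1, the commonest pair. The scaling took the commonest log2 fold of each list to be this pair, and each traced −log10 p had to match within 1%. An input of 1 may be a pseudocount rather than a read. In all, 80.3% of traced mAb members and 93.0% of traced rAb members had 5 or fewer IP reads, so for most colon members enrichment was not detectable at this depth.

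In the mAb list, 40 of 1033 members were sites (3.87%, 2.78 to 5.24), beside 1.22% over all peaks of the list and 1.78% (1.34 to 2.31) of distal intron peaks. These 40 made up 19.9% (14.6 to 26.1) of all mAb sites, though members were 6.28% of its peaks. In the rAb list, 8 of 342 members were sites (2.34%, 1.02 to 4.56), beside 1.99% over all its peaks and 2.73% of distal intron peaks, a share near the background. They were 4.40% (1.92 to 8.48) of all rAb sites. The mAb sites formed 34 stretches in 31 genes and the rAb sites 6 stretches in 6 genes.

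Like the small intestine members, most mAb sites lay at the start of intron 1. Of the 40, 39 were downstream, 34 (85.0%, 70.2 to 94.3) were at the start of intron 1, and 34 lay within 1000 bases of a transcript start. Sites were 34 of 504 members at the start of intron 1 (6.75%), 5 of 224 at the start of later introns (2.23%), 1 of 92 at the end of intron 1 (1.09%) and 0 of 213 at the end of later introns, which allows a share of up to 1.72% by the exact interval. Their median of 15 IP reads ranged from 10 to 144. All 8 rAb sites were downstream, 4 of them in intron 1, with a median of 8.5 IP reads.

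Base composition followed the same division. The 75 bases centred on the peak had a median GC content of 76.0% at downstream small intestine members, 66.7% at downstream mAb members, 57.3% at downstream rAb members and 78.7% at mAb sites. Upstream members had medians of 69.3%, 52.0% and 52.0%. At the start of intron 1 the medians were 76.0%, 74.7% and 64.0%, and at the start of later introns 56.0%, 52.0% and 50%. Tiled windows at the start of intron 1 had a median of 50.7% in the genes of each list. These windows come from every gene with a called peak and are not matched to the members by gene or distance from the exon.

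A GC content of 70% or more was found at 191 of 275 downstream small intestine members (69.5%, 63.6 to 74.8), 332 of 728 mAb (45.6%) and 58 of 227 rAb members (25.6%). Windows at the start of intron 1 reached it in 14.5%, 9.80% and 9.64% of cases in the genes of the 3 lists. Distal intron peaks reached it in 13.8%, 2.65% and 2.82%.

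**Figure D3:**
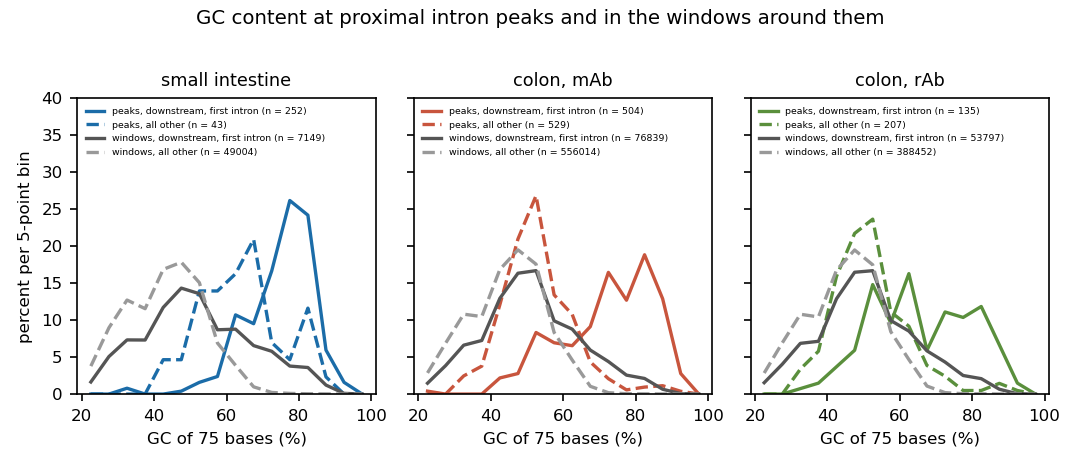
Lines give the percent of peaks or windows per 5-point bin of GC content, taken over 75 bases, with 1 panel per list and the number of peaks or windows in the legend. Peaks at the start of intron 1 lie to the right of windows from that part of all genes with a called peak. Median GC contents are 76.0% (small intestine), 74.7% (mAb) and 64.0% (rAb) against 50.7% for the windows. The windows are not matched to the peaks by gene or by distance from the exon.

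Short motifs were counted in the same 75 bases, on the RNA strand only. GGGG, a run that hnRNP F and H proteins are known to bind, was present at 234 of 295 small intestine members (79.3%, 74.2 to 83.8), 53.0% of mAb and 41.8% of rAb members, and 31 of 40 mAb sites (77.5%). Of all windows of that length 19.6%, 20.1% and 20.1% held it, and of those at the start of intron 1, 35.1%, 32.0% and 31.8%. Distal intron peaks held it in 54.6%, 30.4% and 29.1%. GTAAG, the core of a strong 5′ splice site, was present at 2 small intestine members (0.678%) against 7.82% of windows, and at 5.23% of mAb members against 7.66%. Windows at the start of intron 1 held it in 8.67% and 8.62% of cases for these 2 lists. The first window of each intron begins at its first base and so includes the 5′ splice site. The 75 bases at a member reach that site only if the peak lies close to it. The GTAAG shares of members and windows therefore cannot show whether members lack this motif.

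TTTTT, found in polypyrimidine tracts, was present at 4 small intestine members (1.36%) and 4.55% of mAb members, against 17.7% and 16.3% of windows. Windows at the start of intron 1 held it in 13.1% and 12.7%, and none of these shares was adjusted for GC content. GAAGAA, a purine motif that SR proteins are known to bind, was present at 1.69% of small intestine members, close to the 2.49% of windows, whereas 13.2% of exon peaks and 11.5% of distal intron peaks of that list held it. The predicted minimum free energy of the 101 bases around the peak, a quantity that moves with GC content, had a median of -44.8 kcal/mol at small intestine members, against -31.6 at distal intron peaks and -25.9 at exon peaks. It was -49.95 kcal/mol at mAb sites.

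In the small intestine, the highest downstream log2 fold was 7.40, given to 3 adjacent intervals of 6 to 13 bases in intron 1 of Kcnd3os, a non-coding RNA opposite Kcnd3. Vegfa followed with 6.80, Aplf (a DNA repair factor) and Synj2bp with 6.65 and 6.64, 2900026A02Rik with 6.28, and Gm17018 with 6.20. The Gm17018 intervals were 6 and 8 bases wide, carried the capped −log10 p of 400, and lay in a later intron. These highest folds were mixed in base composition: the 75 bases had a GC content of 84.0% at Kcnd3os and 72.0% at Vegfa, but 61.3% at 2900026A02Rik, 52.0% at Aplf and at Gm17018, and 34.7% at Synj2bp. On the upstream side the highest were Trmt9b (a tRNA methyltransferase-like gene) with 6.80, Gna11 (a G protein α subunit) with 6.34, Ptma (prothymosin α) with 5.50, Azin1 with 5.33, Srsf5 (an SR splicing factor) with 5.01 and Errfi1 with 4.51. All of these upstream peaks lay in intron 1, and several belong to genes with downstream members as well.

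Ctnnb1 had the most members, 7, all at the starts of 2 alternative first introns, between 81 and 758 bases from the annotated start before them, with log2 folds from 4.04 to 5.52. The Gnb1 (a G protein β subunit), Luzp1 and Azin1 genes had 6 each, with folds of 4.76 to 6.02, 4.11 to 5.90 and 4.26 to 5.74. Of the 165 small intestine genes, 100 had 1 member, and 59 also had a peak in an exon.

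**Figure D4:**
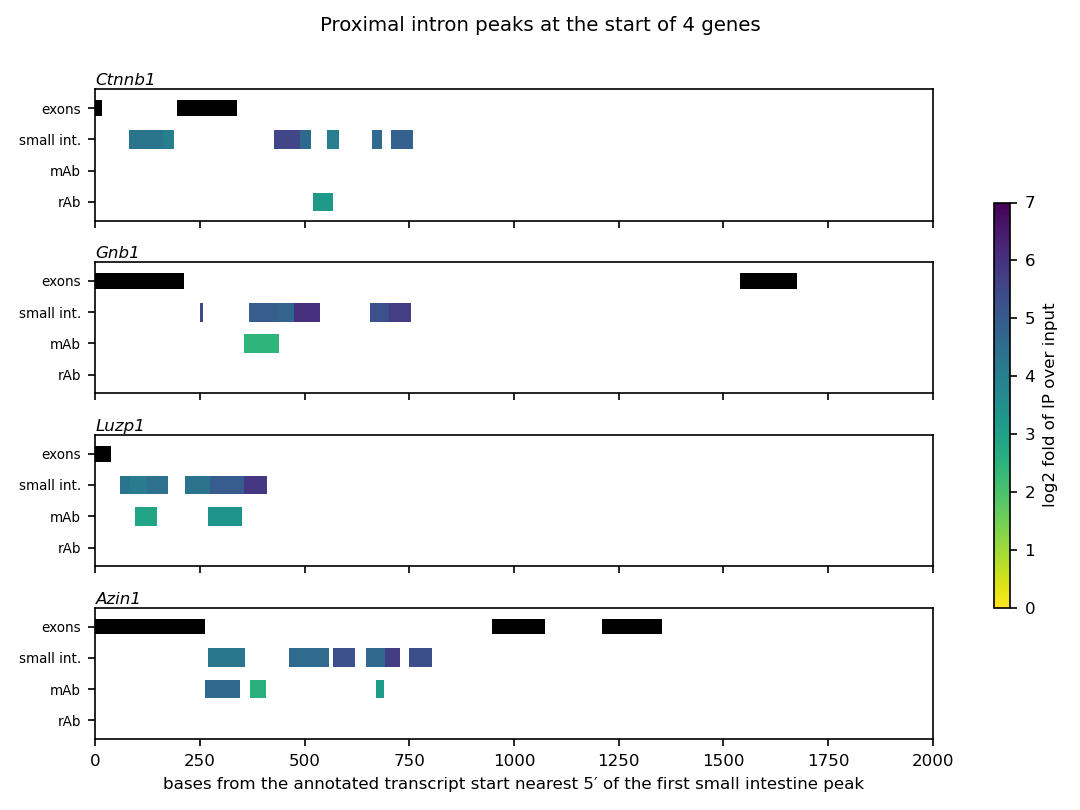
Maps of the beginning of 4 genes with 6 or 7 small intestine members, with annotated exons in black and proximal intron peaks of each list coloured by log2 fold, against bases from the annotated transcript start. The small intestine peaks drawn lie within 1000 bases of the start in each gene. Proximal intron peaks lie close to an exon by definition, which bounds how far into the intron they can reach. Distal intron peaks are not drawn, so the maps do not show whether binding ends there. The mAb peaks drawn fall among the small intestine peaks in 3 genes, and the rAb list has 1 peak, in Ctnnb1.

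Among the highest folds of the mAb list, Rhbdf1 (an inactive rhomboid) had 30 IP reads over an input of 1, a log2 fold of 5.47 (exact interval 2.88 to 10.8). Pdlim5 (a PDZ and LIM domain protein) had 22 over 1 (5.02), Azin1 17 over 1 (4.65), and Acsl3 (an acyl-CoA synthetase) and Errfi1 33 over 2 each (4.61). The upstream site, in St6galnac6 (a sialyltransferase), had 11 over 1 (4.02). These intervals are wide because the input held 1 or 2 reads.

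The mAb genes with the most members had no sites. Dmbt1 (a secreted mucosal scavenger receptor) and Luc7l2 (a U1 snRNP-associated protein) had 5 each, with log2 folds of 1.15 to 2.89 and 0.56 to 2.56. Of the 7 genes with 4 members, Zfp219 reached the highest fold, 3.56, followed by Lrig1 (a stem cell marker), Phgr1 and Vapa at 2.56 each. Of the 743 mAb genes, 507 had 1 member and 486 also had a peak in an exon. None of the 31 genes with a proximal intron site had an exon site. Only 201 of 16455 peaks in the list (1.22%) were sites, so this absence says little about those genes.

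Among the 8 rAb sites, Cdk2ap1 had 8 IP reads over an input of 1 (log2 fold 4.65), Nisch 7 over 1 (4.46), and 1190005I06Rik 7 over 1 at each of 2 adjacent intervals (4.46). Lta4h (leukotriene A4 hydrolase) had 9 over 2 at 2 adjacent intervals (3.82, intron 8). Zfp791 had 52 over 17 (3.27), by far the most reads. The Lta4h intervals contained GGAAGAGC, the end of a sequencing adapter, within 15 bases, and the part of this in their fold was not tested. The Zfp791 peak lay 41 bases from the annotated microRNA gene Gm23388 in the same intron.

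The rAb genes with the most members had 3 each. Esrra (an orphan nuclear receptor) and Kif2a (a kinesin) had a log2 fold of 3.24 at each, from 3 IP reads over an input of 1, in intron 1. The 3 Phip intervals had a log2 fold of -1.01, below input, and the 3 for mAb had 1.01, from up to 909 IP over 667 input reads, so input reads alone were abundant there. Next came genes with 2 members, led by 1190005I06Rik and Lta4h.

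To compare lists by position, members were overlapped on the same strand by at least 1 base. Of the small intestine members, 90 (30.5%, 25.3 to 36.1) overlapped an mAb member, and these were 79 of the 1033 mAb members (7.65%). A called mAb peak of any kind lay under 100 (33.9%, 28.5 to 39.6), close to the 36.6% for small intestine exon peaks and the 33.9% for distal intron peaks. A called rAb peak lay under 21 (7.12%, 4.46 to 10.7), against 23.1% for exon peaks and 20.7% for distal intron peaks. From the colon side, a called small intestine peak lay under 81 mAb members (7.84%), 1.42% of mAb distal intron peaks and 2.02% of mAb exon peaks. For rAb these shares were 4.68%, 2.28% and 1.96%. Between the colon lists, 56 mAb members (5.42%) overlapped 52 rAb members (15.2%). A called rAb peak of any kind lay under 58 mAb members (5.61%), 3.92% of mAb distal intron peaks and 22.8% of mAb exon peaks. In the other direction, a called mAb peak lay under 53 rAb members (15.5%), 10.9% of rAb distal intron peaks and 35.8% of rAb exon peaks.

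At overlapping members, log2 folds of mAb and rAb ran together (Spearman 0.72, Pearson 0.77, 64 pairs), and those of the small intestine and mAb hardly did (Spearman 0.11, 94 pairs). The pairs are peaks, not samples, share genes and libraries, and take few distinct values in the colon lists. Adjacent intervals with equal values count more than once. Small intestine folds all lie above the cutoff of 3, whereas the colon pairs include folds below input. The correlations therefore cover unlike ranges and cannot be set against each other. By gene, 101 of 165 small intestine genes (61.2%) also had an mAb member, which were 13.6% of mAb genes, and 18 had a rAb member. In all 3 lists 15 genes had a member.

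Past the cutoff, 15 genes had overlapping proximal intron sites in more than 1 list. The small intestine and mAb shared 11, among them Actb (β-actin), Arid4a, Azin1, Errfi1, Hnrnpa3, Krt8 (keratin 8), Nfe2l2 (the antioxidant factor NRF2), Rasa2 (a Ras GTPase-activating protein) and Ywhaz (a 14-3-3 protein). The mAb site of each of the 11 was at the start of intron 1. At Errfi1, 1 of the overlapping small intestine sites lay at the end of the same intron. In all, 12 of 40 mAb sites (30.0%, 16.6 to 46.5) lay on a small intestine member. The mAb and rAb lists shared 3, Lta4h and 1190005I06Rik among them, and the small intestine and rAb shared Zfp791. The Lta4h intervals have the same coordinates in both colon lists and lie at the adapter end described above, whose part in their folds was not tested. No position was past the cutoff in all 3.

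Actb had log2 folds of 3.28 in the small intestine and 3.81 in mAb (19 reads over 2). Krt8 had 3.14 against 3.15 (12 over 2). Arid4a, at 2 adjacent intervals with GC contents of 88.0% to 93.3%, had 5.92 and 5.83 in the small intestine, 4.56 in mAb (144 over 9) and 1.65 in rAb (12 over 12), where it was not past the cutoff. Hnrnpa3 had 4.49, 4.37 (14 over 1) and 2.39 (5 over 3). Zfp791 had 3.72, 2.78 (65 over 14, interval 1.93 to 3.73) and 3.27, so its mAb value missed the cutoff with an interval that includes it.

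**Figure D5:**
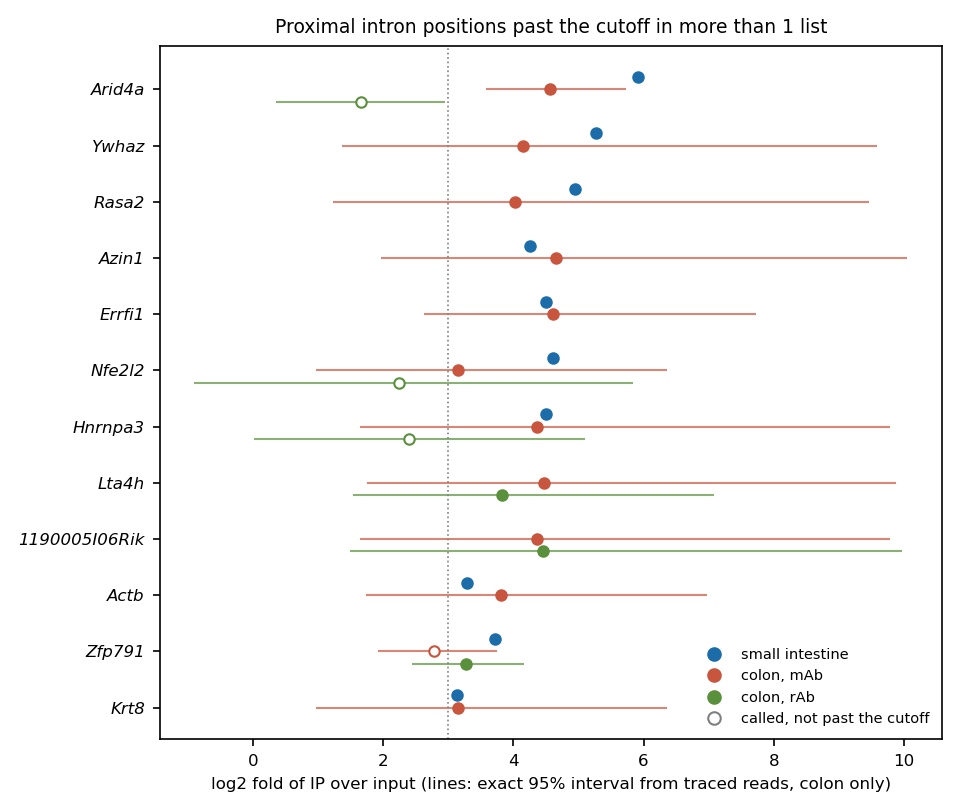
Each row is 1 of 12 genes with a proximal intron position past the cutoff in more than 1 list, and points give the log2 fold of IP over input by list, open where a called peak missed the cutoff, with exact 95% intervals from traced reads for the colon lists. Colon intervals are wide except for Arid4a and Zfp791, the 2 positions with the most reads.

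Gene groups relevant to the tissue and to DDX5 were counted next, beside all genes of each list: of the genes with a called peak, 165 of 467 (35.3%) had a member in the small intestine, 743 of 5189 (14.3%) had one under mAb and 238 of 3607 (6.60%) under rAb. Of 33 SR protein and hnRNP genes, which encode regulators of splice site choice, 10 had a small intestine peak and 7 of these a member: Srsf5, Hnrnpa3, Hnrnpab, Hnrnpdl, Hnrnpf, Hnrnph3 and Hnrnpu. Their 15 peaks had a median log2 fold of 4.42, beside 4.66 over all members. Hnrnpu had 5.41, Hnrnpf 5.57 and 4.36, Hnrnpab 4.71, Hnrnph3 4.42 and 3.69, Hnrnpdl 3.50 and 3.20, and Hnrnpa3 4 peaks from 4.07 to 5.85. The mAb list had members in 7 of the 32 with a peak, with Hnrnpa3 as the only site, and the rAb list in 3 of 29 with no site. Of 35 core spliceosome genes, members were found in 0 of the 4 with a small intestine peak, 4 of 21 with an mAb peak and 0 of 20 with a rAb peak, none a site.

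Of 27 cell junction genes, 12 had a small intestine peak and 8 of these a member: Cldn7 and Ocln (tight junction), Ctnna1, Ctnnb1 and Ctnnd1 (catenins), and Cxadr, F11r and Magi1 (junction-associated proteins). Cldn7 had 5.29, 4.52 and 4.35, Ocln 5.26, Magi1 5.08, Ctnnd1 4.87, F11r 4.21, Cxadr 3.99 and Ctnna1 3.29. The mAb list had members in 6 of the 23 with a peak and the rAb list in 3 of 21, with no sites. Of 27 actin, myosin and brush border genes, 5 of the 15 with a small intestine peak had a member there, namely Actb, Myo1a, Myo1d, Myo1e and Vil1 (villin). Of 26 with an mAb peak, 13 had a member, with Actb as the site, and of 22 with a rAb peak, 0. The Myo1d, Myo1a, Myo1e and Vil1 peaks had log2 folds of 5.47, 4.57, 4.46 and 4.10.

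Of 12 epithelial markers, 7 had a small intestine peak and 5 of these a member (Cldn7, Epcam, Krt20, Krt8 and Vil1). An mAb member was found in 4 of 11, with Krt8 as the site, and a rAb member in 1 of 10. Krt20 had 5.11, in intron 2, and Epcam 3.97 and 3.51. None of the small intestine enterocyte markers had a member in any list, although 8 of the 10 had peaks elsewhere in their small intestine transcripts. Of the 10 colonocyte markers, 5 had an mAb member, with a site in Muc2 (the main gel-forming mucin, 4.02, 11 over 1, in a late intron). Dgat1 (triglyceride synthesis), alone of 19 lipid genes, 8 of them with a small intestine peak, had small intestine members, at 4.94 and 4.11, and no list had any in C3 or Fabp1, which the study follows.

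Of 14 microRNA machinery genes, 0 had a small intestine peak, 2 of 9 with an mAb peak (Ddx5 and Ddx17) had a member, and 1 of 7 with a rAb peak (Ddx5), none a site. The Ddx5 peaks had log2 folds of 1.41 in mAb and 2.65 in rAb. A small RNA gene in the same intron within 500 bases was found for 2, 7 and 4 members of the small intestine, mAb and rAb lists. Repeats marked in the genome covered 50% or more of 4.07% of small intestine, 21.4% of mAb and 12.9% of rAb members, a match to ribosomal RNA was found for 3, 14 and 3, and the adapter end for 1, 7 and 3. Leaving out the ribosomal RNA and adapter matches kept the share of members at the start of intron 1, and that with GGGG, within its interval in every list, and left 37 mAb and 6 rAb sites.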

How the data were processed

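Per the labels, DDX5 eCLIPseq compared IP with size-matched input. The authors trimmed reads with cutadapt 1.9.1, aligned them with STAR 2.4.0i and used SAMtools 1.4.1 (submitters' processing notes, build mm10), called peaks with CLIPper, and deposited for each peak a log2 fold of IP over input and a −log10 p capped at 400. They merged 2 small intestine replicates by the Irreproducible Discovery Rate and kept peaks above 3 on both. The names of the colon lists mark merges of replicates 1 and 2, whereas each antibody has 1 CLIP sample in the labels. Small intestine libraries were paired-end and colon libraries single-end, so tissue, protocol and selection changed together. A list that fits no sample's labels was left aside. The authors' region and gene columns were read only to compare annotation: 74.9% of small intestine members are proximal and 25.1% distal there, and 96.3% carry the same gene.

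Peaks were assigned to GENCODE M21 (GRCm38) with Python 3.11.15, pandas 2.3.3, numpy 2.4.6 and samtools 1.23.1, with side set by the nearest exon over all transcripts whose intron holds the peak. Intervals used scipy 1.17.1, folding RNAfold 2.7.2, matches to 423 ribosomal RNA sequences blastn 2.17.0+ (at least 20 bases at 90% identity), and plots matplotlib 3.10.9. Colon reads were traced from fold and p within 1%, for 99.2% of 13011 mAb and 99.6% of 8282 rAb peaks, with input depth 1.48 and 3.15 times that of IP. To set this depth, the commonest log2 fold of each colon list was taken as 3 IP reads over an input of 1. The depth of the small intestine libraries is unknown here. Assignment and tracing were tested on simulated data, where 1400 toy peaks and 977 read pairs came out right. The simulated reads used the same commonest pair and p formula, so they check the code and not these assumptions. No test was run, since each group had 1 list, and peaks are not replicates.

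Named genes were, in the small intestine, the 6 highest folds per side, in the colon lists the 6 highest sites per side or all sites if 10 or fewer, the 5 genes with the most members, sites shared between lists, gene list members with a site, and C3, Fabp1 and Ddx5. Some items that this rule selects are not reported here. Members and gene lists were chosen with earlier results of these data known, and GAAGAA and the 70% GC threshold after seeing these peaks. The alternatives were other windows, cutoffs and overlaps, 1 peak per gene, joined intervals, removal of peaks that match ribosomal RNA or the adapter, and a stricter definition of intron 1.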

Additional observations from a re-analysis of the deposited data

How the results depend on the processing

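Of 105 values recomputed for 17 results, 85 stayed within their limits and 20 did not, and of 18 added after seeing the data, 15 did and 3 did not. With a window of 200 bases, members numbered 176, 564 and 182 in the small intestine, mAb and rAb lists, colon sites 14 and 0, and the small intestine median log2 fold was 4.53. With 1000 bases, rAb members numbered 521. With 1 peak per gene that small intestine median was 4.90, but the peak kept was the one with the highest log2 fold, a choice that favours higher values. With log2 fold above 4, sites numbered 26 in mAb and 5 in rAb, of which 3.85% and 0 were upstream. With log2 fold above 1 they numbered 61 and 16, and with −log10 p above 5, 17 and 2. With a reciprocal overlap of 50%, 47 and 7 small intestine members lay on an mAb and a rAb peak. Counting intron 1 only where it is the first in every transcript that holds the peak, the start of intron 1 held 79.7%, 44.9% and 31.3% of members. Apart from the median with 1 peak per gene, these values follow from stricter or looser limits.

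No paired analysis was possible because the replicates that share numbers are small intestine libraries merged into 1 list, and leaving out a replicate was not possible, since no values per replicate were analysed here. Colon antibody, tissue, sequencing protocol and peak selection cannot be told apart. Low read numbers limit the colon lists.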
